A study of Mus musculus with 5 samples.

Results

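The mouse hepatoma line Hepa1-6 was compared with E14 embryonic stem (ES) cells, the parental lines of a fusion hybrid. The arrays were chosen by their titles, 2 of the 5 arrays of the series, and 14586 of the 18327 genes named here through RefSeq accessions were kept because a probe was well above background on at least 1 of these 2 arrays. The study fused Hepa1-6 with ES cells and followed the hybrids through differentiation in culture. The question addressed here is which gene programmes separated the parents before fusion. E14 cells had been grown in Glasgow minimum essential medium with knock-out serum replacement, a little fetal bovine serum and leukemia inhibitory factor. Hepa1-6 cells had been grown in high glucose Dulbecco's medium with fetal calf serum. Each line gave 1 array of total RNA, so the values below have no spread between replicates and no test. Hepa1-6 was on another slide than the other 4 arrays, and line, medium and slide cannot be told apart.

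ES cells hold a self-sustaining circuit of transcription factors around Pou5f1, Sox2 and Nanog, which keeps lineage genes poised and is fed by leukemia inhibitory factor. Hepatocytes are kept by another circuit, in which the HNF4, FOXA, ONECUT and C/EBP factors act on each other and on genes for albumin, clotting factors, complement and lipid particles. Hepatomas keep parts of that programme, often with fetal genes such as alpha-fetoprotein.

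Most genes of the ES circuit were over 3-fold lower in Hepa1-6, which carried a partial liver programme. Albumin, alpha-fetoprotein and some complement genes were high, while other complement genes and many genes of mature liver were low or dim. Cytoskeletal, annexin, growth factor receptor, chemokine and interferon genes were more often higher than lower in Hepa1-6. Pluripotency, germline and imprinted genes were mostly lower, as were DNA replication genes, although most of the latter came inside 3-fold with 2 other scalings. Of the 14575 genes with a value on both arrays, 2206 (15.1%) were higher and 4043 (27.7%) lower in Hepa1-6, each by over 3-fold. Past 10-fold there were 873 genes (5.99%) higher and 1730 (11.9%) lower. The other 8326 genes (57.1%) lay within 3-fold. Signals are given on a scale on which the 75th percentile of each array is 1000, and a difference is the log2 signal of Hepa1-6 minus that of ES. The median difference of all genes was -0.47, with quartiles of -1.78 and 0.73.

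The split of higher and lower genes rested on that scaling. Centring each array on its median moved the median of all genes by 0.78, to 0.31, and gave 3466 genes over 3-fold higher and 2722 lower. Scaling on the labelled RNA spiked into each sample moved it by 0.86, to 0.39, with 3656 higher and 2608 lower. Counts use signals as read, dim ones included; with dim signals set to the detection limit, 2051 genes were higher and 3227 lower by over 3-fold. Of 292 genes in the named set past 3-fold, 263 stayed past it with median centring and 263 with spike-in scaling. Of those mentioned below, Anxa8, Ddx3y, Elovl6, F2, Gpc3, Itih1, Slc2a1, Socs2, Tfrc, Tgfb3, Trp53 and Vim came inside 3-fold with either of these scalings. With normexp background correction 250 stayed past 3-fold. Among those mentioned below Cnn1, Col1a1, Col1a2, Cyp2c29, Ddx3y, Eif2s3y, Elovl6, F2, Gstt1, Itih1, Kdm5d, Sc5d, Tet3 and Tgfb3 did not. A signal is called dim where the probe was not well above background. A fold against a dim signal is a lower bound, taken against the lowest signal called above background on that array (23.3 on ES, 25.3 on Hepa1-6) or the dim signal itself, whichever was higher. On ES only, 2572 genes were above background, and on Hepa1-6 only, 679 were. Such genes passed the filter through their brighter array and so lean towards a difference. For the gene lists, a median with dim signals at the detection limit is given in brackets where it differed. Median centring and spike-in scaling added 0.78 and 0.86 to every list median. Where a gene had further kept probes, their differences are bounds in the same way if a signal was dim.

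**Figure D1:**
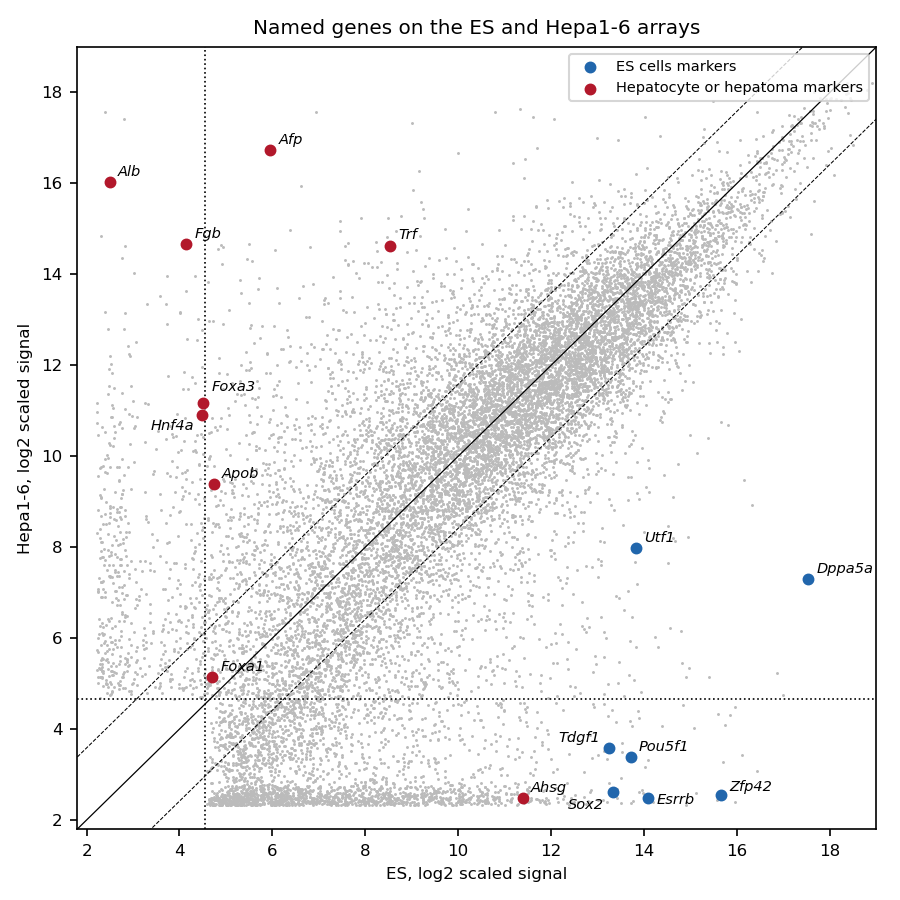
Log2 signal of each of 14575 genes on the ES array (horizontal axis) and the Hepa1-6 array (vertical axis), 1 array each. Dotted lines mark the detection limits, dashed lines 3-fold differences, and coloured points the markers of each cell type; the 7 ES cell markers lie below the lower dashed line, and Ahsg lies with them while 7 of the 9 hepatocyte markers lie above the upper one.

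The markers matched the label of each line in most cases. All 7 ES cell markers with a value (Pou5f1, Sox2, Zfp42, Esrrb, Dppa5a, Tdgf1 and Utf1) were over 3-fold lower in Hepa1-6, with a summed signal of 306891 on ES and 448 on Hepa1-6. Nanog was not among the genes named here. Of 13 hepatocyte markers, 9 were kept, 7 of them over 3-fold higher and Ahsg over 3-fold lower, with a summed signal of 3242 on ES and 232237 on Hepa1-6. The thyroid hormone carrier Ttr, Apoa1 of high density lipoprotein and Ahsg were not well above background on Hepa1-6, and Serpina1a was not among the genes named here.

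Nearly all core pluripotency factors were lower. Of 12 kept genes, 11 were over 3-fold lower in Hepa1-6, 9 of them over 10-fold, and 0 were higher. Their median difference was -6.36. Pou5f1, the POU factor at the centre of the circuit, read 13425 on ES and a dim 10.4 on Hepa1-6, at least 531-fold lower. Sox2, its partner on DNA, read 10257 and a dim 6.13, at least 405-fold lower. Lin28a, which blocks maturation of let-7 microRNAs, went from 3452 in ES to a dim 5.24, at least 136-fold lower. The POU and SOX partners were thus bright in ES and dim in the hepatoma. Tdgf1, the Nodal co-receptor, was at least 382-fold lower (9670.2 against a dim 12).

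The naive state factors, which mark ground state ES cells, were mostly lower too. Of 19 kept genes, 16 were over 3-fold lower and 15 over 10-fold lower, with a median of -6.99 (-6.82 at the detection limit). Zfp42, also known as Rex1, read 51620.1 on ES and a dim 5.85 on Hepa1-6, at least 2040.4-fold lower. Esrrb, an orphan nuclear receptor of the naive network, read 17398 and a dim 5.62, at least 688-fold lower. Tdh, the threonine dehydrogenase on which mouse ES cells depend for one-carbon units, read 118635 and 37.6, 3155-fold lower. Threonine breakdown was thus a step with measurable signal on both arrays and a difference among the 12 largest falls. Nr0b1, also known as Dax1, was at least 383-fold lower (9679.7 against a dim 7.0), and Dppa5a was 1211-fold lower (189949 against 157). Not all members fell far: Klf4, Dppa2 and Dppa4, named after their values were seen, lay within 3-fold, with Klf4 at 45843 on ES and 23265 on Hepa1-6. Nr5a2 belongs to both the ES and the liver circuits. It read 8742 on ES and 344 on Hepa1-6, 25.4-fold lower.

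Genes of the Nodal, FGF and BMP pathways went both ways. Of 18 kept genes, 9 were lower and 4 higher, each by over 3-fold, with a median of -1.81 (-0.89 at the detection limit). The Nodal antagonist Lefty1 read 18796 on ES and a dim 5.23 on Hepa1-6, at least 743-fold lower. Its relative Lefty2 was at least 213-fold lower, and Gdf3, a ligand of the same receptors, was 152-fold lower (3931 against 25.8). Inhbb, the activin B subunit, read 24081 and 74.7, 322-fold lower. These genes of Nodal and activin signalling were thus low in Hepa1-6, and other lower members included Otx2 (at least 196-fold lower). The 4 higher members were Id1, Id2, Id3 and Dusp6. The BMP targets Id1, Id2 and Id3, inhibitors of basic helix-loop-helix factors, were 5.68-fold higher, 47.5-fold higher and 12.5-fold higher. Dusp6, a phosphatase that dampens ERK, read 6546 and 49314, 7.53-fold higher.

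Genes of early lineages were read on ES cells more often than on Hepa1-6. Of 20 kept early differentiation markers, 16 were over 3-fold lower in Hepa1-6, with a median of -3.44 (-1.81 at the detection limit). With normexp the number lower was 8. Tfap2c, a factor of trophoblast and germ cell precursors, read 16173 on ES and a dim 6.05 on Hepa1-6, at least 639-fold lower. Gata6, the driver of primitive endoderm, read 3015 and a dim 5.57, at least 119-fold lower, and its other kept probe differed by -1.75. Sox7 and Amn, also of primitive and visceral endoderm, were at least 18.2-fold lower and at least 28.6-fold lower. Hand1, of trophoblast and mesoderm, was at least 11.8-fold lower. The list had 1 gene over 3-fold higher, Foxa2, which is shared by definitive endoderm and liver.

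Germline genes were mostly lower too. Of 32 kept genes, 28 were over 3-fold lower in Hepa1-6, 22 over 10-fold, and 0 higher, with a median of -5.95 (-4.05 at the detection limit). Tex19.1, which restrains retrotransposons in germ and ES cells, read 34618 on ES and a dim 16.3 on Hepa1-6, at least 1368-fold lower. Mael, of the piRNA pathway, read 11550.5 and a dim 7.6, at least 457-fold lower. Syce1 and Syce2, parts of the central element of the synaptonemal complex, were at least 425-fold lower and 412-fold lower. Stag3, the meiotic cohesin subunit, read 3796 and a dim 5.57, at least 150-fold lower. These 3 genes of meiotic chromosome structure were thus measured in cultured ES cells and low or dim in the hepatoma, whereas Sycp2, of the same complex as the Syce genes, was dim on both arrays.

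Genes that write and read DNA methylation and Polycomb marks were lower in part. Of 29 kept, 12 were lower and 3 higher, each by over 3-fold, with a median of -1.36. Dnmt3l, the cofactor of the de novo methyltransferases, read 20303 on ES and 56 on Hepa1-6, 363-fold lower. Dnmt3b, a de novo methyltransferase, read 5199 and 159.6, 32.6-fold lower. Cbx7, the chromobox protein of ES cells, read 3458 and a dim 6.3, at least 137-fold lower. The accessory subunits Phf19 and Jarid2, which help recruit the methyltransferase complex, were at least 71.6-fold lower and 20.6-fold lower. Phc2 was 3.79-fold higher and the dioxygenase Tet3 3.06-fold higher by the probe used, with its other kept probe at a difference of 0.40. Bmi1, a Polycomb protein that represses the Cdkn2a locus, read 224 and 625, a difference of 1.48 that is within 3-fold, but its other kept probe differed by 2.23.

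Imprinted genes, which are read from 1 parental allele, were mostly low in Hepa1-6. Of 27 kept, 20 were over 3-fold lower, 18 of them over 10-fold, and 2 were over 3-fold higher, with a median of -4.01 (-3.02 at the detection limit). Mest read 5171 on ES and a dim 5.19 on Hepa1-6, at least 204-fold lower. Phlda2, which limits placental growth, read 13209 and a dim 18.1, at least 522-fold lower. Meg3, a long noncoding RNA, read 7527 and a dim 10.3, at least 298-fold lower, and its 5 kept probes were all lower, with differences between -9.04 and -1.07. Paternally and maternally expressed genes were both among the low ones, since Mest is read from the paternal and Meg3 and Phlda2 from the maternal allele. Snrpn and Sgce, both paternally expressed, were at least 141-fold lower and at least 69.1-fold lower. The fetal growth factor Igf2 lay within 3-fold, at 366 on ES and 285 on Hepa1-6. The higher genes were Dcn, described with the matrix genes, and Gnas. Gnas was 4.35-fold higher by the probe used, and its other kept probe, dim on Hepa1-6, gave a bound of -0.28. H19 was not among the genes named here.

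Sex-linked genes also differed. Xist, the RNA that coats the inactive X chromosome, read a dim 5.77 on ES and 4152 on Hepa1-6, at least 178-fold higher, and all 4 of its kept probes were higher, with differences between 2.00 and 7.47. The Y-linked Eif2s3y read 68.8 on ES and a dim 5.98 on Hepa1-6, at least 2.72-fold lower. Kdm5d and Ddx3y were low but above background on ES (36.8 and 25.6) and dim on Hepa1-6, and Uty was dim on both. Over the 4 kept genes of this list the median was -2.43 (-0.28 at the detection limit), with 1 higher and 3 lower past 3-fold by the signals as read. The bounds for the 3 Y-linked genes were below 3-fold, so how far they fell is not known.

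The liver transcription factors were higher in Hepa1-6 as a group, with exceptions. Of 25 kept, 15 were higher and 2 lower, each by over 3-fold, with a median of 1.76 (1.59 at the detection limit). Hnf4a, the nuclear receptor that keeps hepatocyte identity, read a dim 22.5 on ES and 1917 on Hepa1-6, at least 82.1-fold higher. Its 3 kept probes were all higher but ranged from 0.55 to 6.36. Foxa2 and Foxa3, pioneer factors of endoderm and liver, differed most within the FOXA family. Foxa2 read 139 and 10427, 75.2-fold higher. Foxa3 read a dim 22.7 and 2302, at least 98.6-fold higher. Foxa1 stood apart from its relatives, at a dim 26 on ES and only 35.4 on Hepa1-6, at least 1.36-fold higher.

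Other factors of the circuit were also higher. Onecut2, a cut homeodomain factor of liver and bile duct, read 42.9 on ES and 3790.2 on Hepa1-6, 88.4-fold higher. Nr2f2, also known as COUP-TFII, read a dim 6.03 and 1627, at least 69.7-fold higher. Cebpa, which supports mature hepatocyte metabolism, read 76.3 and 628, 8.22-fold higher, with its other kept probe at a difference of 1.18. Gata6 and Nr5a2, given above with the ES genes, were the members over 3-fold lower. Nr1i2 and Nr2f1 were dim on both arrays, and Prox1 had no ES value after outlier spots were dropped.

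Secreted plasma proteins were mostly higher. Of 20 kept genes, 14 were over 3-fold higher in Hepa1-6, 11 of them over 10-fold, and 2 were lower, with a median of 4.77 (3.48 at the detection limit), which fell to 2.08 with normexp and 1.52 without the filter on dim probes. Alb, the main plasma protein, read a dim 5.65 on ES and 66693 on Hepa1-6, at least 2857-fold higher. Afp, its fetal relative, read 61.8 and 109246, 1768-fold higher. Igfbp1, a liver-secreted binding protein for insulin-like growth factors, read a dim 5.24 and 196015, at least 8396-fold higher. These were 3 of the 12 largest rises among all genes. Itih2, which carries hyaluronan-binding chains, read 28.3 and 24105, 853-fold higher, and the copper carrier Cp read a dim 5.49 and 2633, at least 113-fold higher. The exceptions were Ahsg and Itih1. Ahsg, also known as fetuin A, read 2689.9 on ES and a dim 5.55 on Hepa1-6, at least 106-fold lower, and Itih1 was at least 3.77-fold lower. Another 8 members were dim on both arrays, among them Ttr, Orm1, Vtn and Hamp.

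The POU octamer ATGCAAAT was searched for, on both strands, in RefSeq promoters of build GRCm38.p6 from 250 bases before to 50 bases after the start. A promoter was found for 24 of the 30 plasma protein genes. The octamer was in 570 of all 32851 promoters (1.74%), in 1 of 15 of the naive list, that of Zfp42, and in 1 of 37 of the complement list, that of C1ra. The other 5 lists searched had 0 octamers. Other motifs were searched for in the same promoters and are not reported here. Only the octamer is marked below, and unmarked stretches can hold other motifs. A match describes the letters present and shows neither binding nor cause. The promoters of Alb, Afp and Igfbp1, which were among the 12 largest rises, and of Zfp42 follow. Each is written 5' to 3' along its gene, with the octamer of Zfp42 in capitals, from chr5:90460620-90460919 on the plus strand (Alb), chr5:90490464-90490763 on the plus strand (Afp), chr11:7197537-7197836 on the plus strand (Igfbp1) and chr8:43306960-43307259 on the minus strand (Zfp42).
Alb: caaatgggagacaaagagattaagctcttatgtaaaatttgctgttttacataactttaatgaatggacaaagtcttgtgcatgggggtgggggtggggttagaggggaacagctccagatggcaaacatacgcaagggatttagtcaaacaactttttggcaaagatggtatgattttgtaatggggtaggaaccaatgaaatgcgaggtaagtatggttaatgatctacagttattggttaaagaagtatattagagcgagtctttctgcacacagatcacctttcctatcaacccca
Afp: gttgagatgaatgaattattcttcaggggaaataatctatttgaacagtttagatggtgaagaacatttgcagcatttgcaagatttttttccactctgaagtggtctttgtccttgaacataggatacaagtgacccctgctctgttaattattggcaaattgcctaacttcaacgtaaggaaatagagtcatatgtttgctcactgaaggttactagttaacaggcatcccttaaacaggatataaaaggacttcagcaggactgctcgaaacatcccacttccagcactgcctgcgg
Igfbp1: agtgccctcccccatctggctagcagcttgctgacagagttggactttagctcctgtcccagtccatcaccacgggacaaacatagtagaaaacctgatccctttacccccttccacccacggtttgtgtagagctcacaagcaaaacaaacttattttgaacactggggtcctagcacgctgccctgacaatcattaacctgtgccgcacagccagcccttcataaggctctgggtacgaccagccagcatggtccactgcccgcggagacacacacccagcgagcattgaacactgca
Zfp42: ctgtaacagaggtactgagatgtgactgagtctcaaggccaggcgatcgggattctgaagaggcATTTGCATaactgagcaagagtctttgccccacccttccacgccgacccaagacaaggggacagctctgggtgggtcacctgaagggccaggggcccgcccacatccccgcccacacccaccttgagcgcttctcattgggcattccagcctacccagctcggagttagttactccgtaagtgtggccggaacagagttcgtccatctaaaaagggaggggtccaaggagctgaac

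Apolipoprotein genes were mixed. Of 16 kept, 7 were higher and 3 lower, each by over 3-fold, with a median of 0.44 (0.35 at the detection limit). Apob, the structural protein of very low density lipoprotein, read 26.7 on ES and 672 on Hepa1-6, 25.2-fold higher, with its 4 kept probes between 0.47 and 4.65. Mttp, which loads lipid onto it, read a dim 30.7 and 725, at least 23.6-fold higher. Apoe, a ligand for uptake of remnants, was bright on both arrays at 55445 and 300919, 5.43-fold higher. The assembly pair Apob and Mttp was thus higher in the hepatoma. Apom and Apod, lipocalins carried on high density lipoprotein, were 20.8-fold lower and at least 16.3-fold lower. Apoa1, Apoa4, Apoc3 and Apoh were dim on both arrays.

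Complement and coagulation genes were split by component. Of 34 kept, 19 were higher and 9 lower in Hepa1-6, each by over 3-fold, with a median of 2.42 (2.01 at the detection limit), and 15 more were dim on both arrays. The median fell to 1.22 with normexp and 0.10 without the filter on dim probes, so the group as a whole was not clearly higher. C3, the hub of complement, read 189 on ES and 25233 on Hepa1-6, 134-fold higher. Cfb, a protease of the alternative pathway, and Cfi, which cleaves C3b, were at least 115-fold higher and at least 391-fold higher. C3, Cfb and Cfi were thus higher, while Cfd, another protease of that pathway, was dim on both arrays. Fgb, the fibrinogen beta chain, read a dim 17.6 and 25984, at least 1113-fold higher, and Plat, the tissue plasminogen activator, read 197 and 19055, 96.6-fold higher. Fga, the alpha chain, was dim on both arrays. Other members went the other way, and the 9 lower genes became 4 with median centring and 3 with normexp. Serping1, the inhibitor of complement C1, read 1294 and a dim 7.73, at least 51.2-fold lower, and prothrombin, F2, was 3.32-fold lower at 237 and 71.3.

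Detoxifying enzymes showed no common direction. Of 38 kept cytochrome P450 and conjugating enzymes, 10 were higher and 11 lower, each by over 3-fold; the median of -0.24 turned to 0.54 with median centring, 0.10 with quantile normalization, 0.11 over genes above background on both arrays and 0.62 with spike-in scaling. Aldh1a1, which makes retinoic acid, read 98.8 on ES and 63235 on Hepa1-6, 640-fold higher. Cyp1a1, the classic target of the aryl hydrocarbon receptor, read a dim 5.88 and 1855, at least 79.4-fold higher. Cyp3a13 was at least 300.3-fold higher and the glucuronosyltransferase Ugt2b34 at least 69.5-fold higher. Glutathione transferases went both ways, with Gstt1 3.37-fold higher. Gstt3 read 2868 and a dim 6.3, at least 113-fold lower, and Gsta4, which clears lipid aldehydes, read 6067 and 182, 33.4-fold lower. Nqo1, a quinone reductase driven by NRF2, was 18.9-fold lower. The P450 genes Cyp1a2, Cyp2e1 and Cyp7a1, known from adult liver, were dim on both arrays. Other P450 genes went both ways. Cyp2c29 and Cyp27a1 were 4.75-fold higher and 11.8-fold higher, and Cyp4f14 was at least 12-fold lower.

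Enzymes of liver amino acid, urea and sugar metabolism were not raised as a group in Hepa1-6. Of 23 kept genes, 3 were higher and 9 lower, each by over 3-fold, with a median of -1.25 (-0.77 at the detection limit), which became -0.11 over genes above background on both arrays. Otc, Hpd, Hgd, Gys2 and Fabp1 were dim on both arrays. Hal, which breaks down histidine, read 3336 on ES and a dim 20.7 on Hepa1-6, at least 132-fold lower. Fbp1, a rate-limiting enzyme of gluconeogenesis, read 447 and a dim 5.0, at least 17.7-fold lower. Liver glycogen phosphorylase, Pygl, was at least 11.5-fold lower, and Cbs, of transsulfuration, was 13.5-fold lower. Nags, which makes the activator of the urea cycle, was 6.51-fold higher, at 129 and 837.

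Glycolytic genes with large differences were few. Of 27 kept, 20 lay within 3-fold (57.1% of all genes did), 6 were lower and 1 higher; their median of -0.55 turned to 0.23 with median centring and 0.31 with spike-in scaling. The counts became 3 lower and 4 higher with the first and 3 and 5 with the second, so the side with more genes turned. Slc2a3, a high-affinity glucose transporter, read 70652 on ES and a dim 10.8 on Hepa1-6, at least 2793-fold lower. Ldhb, the heart-type lactate dehydrogenase subunit, read 88890.1 and a dim 8.39, at least 3514-fold lower. Slc16a3, a lactate exporter, read 9281 and 64.6, 144-fold lower. Uptake and lactate handling thus held the large differences. Slc2a1, the widespread glucose transporter, was 3.54-fold lower, and Eno2, the neuronal enolase, was 8.87-fold higher.

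Cholesterol and fatty acid genes resembled all genes in their shares, with 15.4% higher and 19.2% lower against 15.1% and 27.7%. Of 26 kept, 17 lay within 3-fold, 5 were lower and 4 higher. The median of -0.83 turned to 0.031 with spike-in scaling. Median centring and spike-in scaling each gave 7 higher and 3 lower, so the side with more genes turned. Fdft1, squalene synthase, read 30381 on ES and 3244 on Hepa1-6, 9.37-fold lower, and Mvd and Mvk, earlier in the pathway, were 8.28-fold lower and 7.23-fold lower. Me1, the malic enzyme that supplies NADPH, read 559 and 9440, 16.9-fold higher, and the desaturase Scd1 was 6.49-fold higher. Members past 3-fold the other way included Elovl6, of fatty acid synthesis, 3.2-fold lower, and Sc5d, of sterol synthesis, 3.54-fold higher. Elovl6 came inside 3-fold with median centring, quantile normalization, normexp and spike-in scaling, and Sc5d with normexp.

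**Figure D2:**
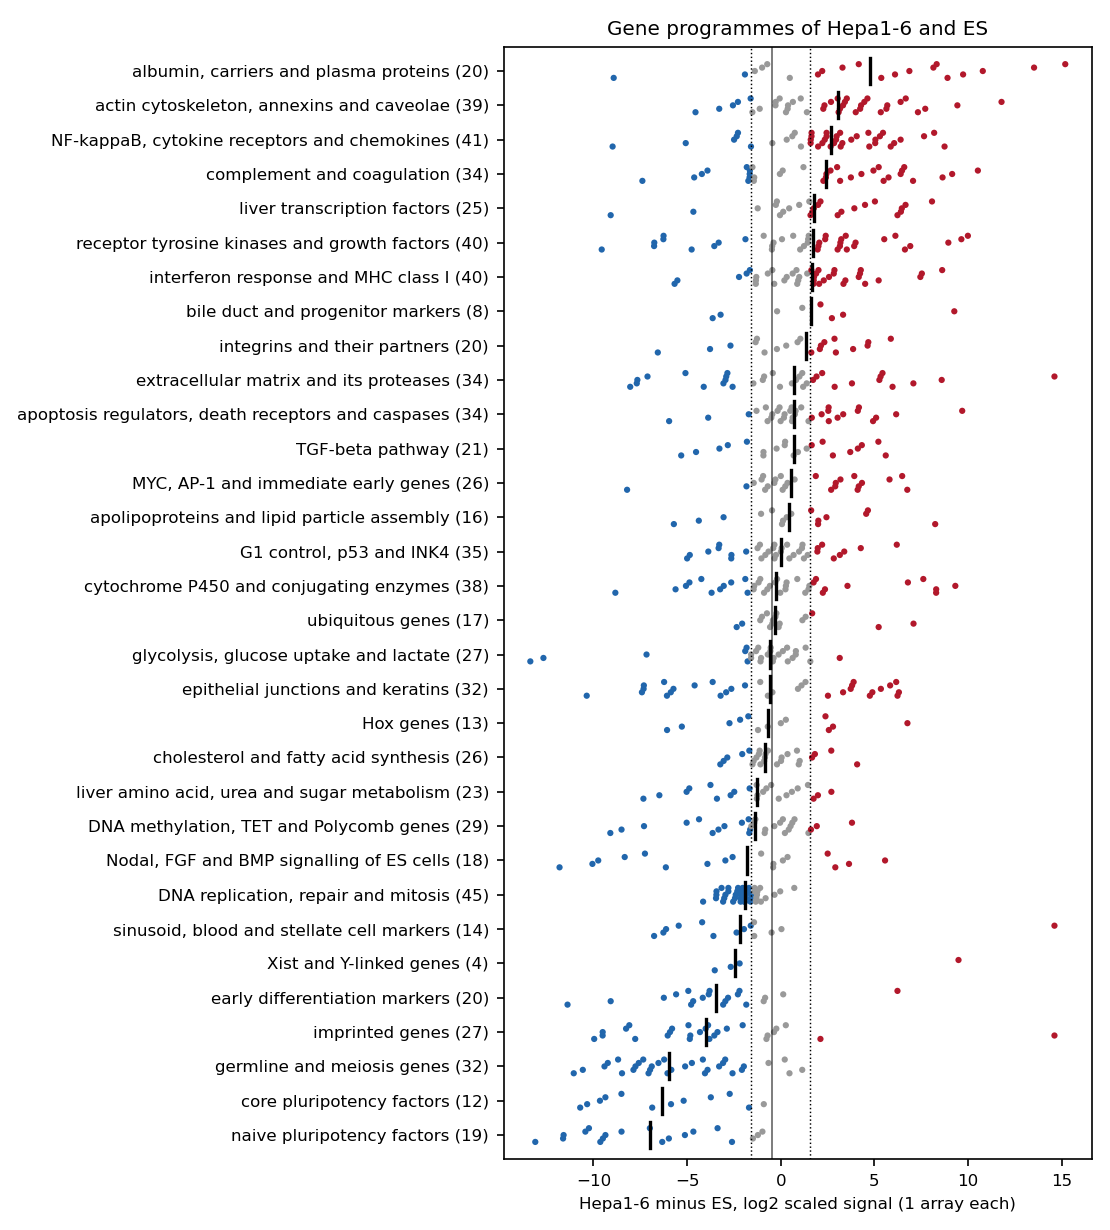
Difference of each kept gene (points; log2 signal of Hepa1-6 minus ES, 1 array each) by gene list, ordered by the list's median (black bar), with the number of kept genes in brackets. Red points are over 3-fold higher and blue points over 3-fold lower in Hepa1-6, dotted lines mark 3-fold, and the grey line is the median of all genes, -0.47 with 75th percentile scaling and 0.31 with median centring; list medians ran from -6.99 for naive pluripotency factors to 4.77 for plasma proteins, and those near 0 changed sign with the scaling as given in the text.

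The cytoskeleton and membrane scaffold were a large group on the Hepa1-6 side. Of 39 kept genes of actin, annexins and caveolae, 23 were over 3-fold higher, 17 of them over 10-fold, and 5 were lower, with a median of 3.04. Cd44, the hyaluronan receptor, read a dim 7.1 on ES and 25128 on Hepa1-6, at least 1076-fold higher. Its 3 kept probes were all higher but ranged from 2.72 to 10.07. Anxa1, Anxa2 and Anxa5, calcium-dependent membrane binders, were 160.3-fold higher, 210.2-fold higher and 102-fold higher. Cav2, a caveolin, read a dim 8.42 and 5813, at least 249-fold higher, whereas Cav1 was dim on both arrays. The lower members were Myl9, Cnn1, Tpm2, Anxa8 and Vim. Myl9, a myosin light chain, read 916 and 39, 23.5-fold lower, and Vim, the filament protein of mesenchymal cells, read 20626 and 6766, 3.05-fold lower, a fold close to the limit of 3.

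Matrix genes went both ways. Of 34 kept, 12 were higher and 11 lower, each by over 3-fold; the median of 0.71 turned to -0.042 when no filter on dim probes was used. Dcn, a small proteoglycan that binds collagen and growth factors, read a dim 7.0 on ES and 175794 on Hepa1-6, at least 7529.6-fold higher. Thbs1, an activator of latent TGF-beta, read a dim 5.81 and 2243, at least 96.1-fold higher, and Col6a1 was at least 37.4-fold higher. Timp2 and Timp3, inhibitors of metalloproteinases, were 43.2-fold higher and 62.7-fold higher. On the other side, the basement membrane genes Nid2 and Lama1 were high in ES. Nid2 read 14628 and 55.6, 263-fold lower, and Lama1, a laminin chain of the early embryo, read 1441 and a dim 6.99, at least 56.9-fold lower. Col5a1 was at least 42-fold lower by the probe used, and its other kept probe differed by -1.01. The fibrillar collagens Col1a1 and Col1a2 were at least 5.0-fold lower and 5.94-fold lower.

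Epithelial genes went both ways as well. Of 32 kept, 12 were higher and 14 lower, each by over 3-fold; the median of -0.57 (-0.51 at the detection limit) turned to 0.22 with median centring, 1.32 over genes above background on both arrays and 0.29 with spike-in scaling. Cdh1, E-cadherin, read 4501 on ES and a dim 26.4 on Hepa1-6, at least 170.4-fold lower. Cdh2, N-cadherin, read a dim 9.7 and 395, at least 16.9-fold higher. The cadherins therefore ran in opposite directions. Snai1 and Zeb2, repressors of Cdh1, read 89.4 and 1326 (14.8-fold higher) and a dim 10.8 and 778 (at least 33.3-fold higher). The simple epithelial keratins of hepatocytes were higher in Hepa1-6, where Krt8 went from ES to Hepa1-6 at 3134 and 179677, 57.3-fold higher. Its filament partner Krt18 was 79.3-fold higher. Krt19, a bile duct keratin, was 12.4-fold lower, at 440.1 and 35.4.

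Junction proteins went both ways within families. The claudins Cldn3 and Cldn4 were 75.3-fold higher and 27-fold higher, while Cldn6 and Cldn7 were at least 19.6-fold lower and at least 86.7-fold lower. Cldn6 marks ES cells and early epithelia. The connexin Gjb5 read 2813 on ES and was dim on Hepa1-6, at least 111-fold lower. Epcam, an adhesion molecule of ES cells and liver progenitors, read 2884 and 311, 9.27-fold lower. Bile duct and progenitor markers were few, with 8 kept of 10, 4 higher and 2 lower and a median of 1.64, which became 0.58 without the filter on dim probes and 0.82 with the mean of a gene's probes. Among them Sox9, the factor of bile duct and progenitor cells, read a dim 7.68 and 4733, at least 203-fold higher, Krt7 was 10-fold higher and Sox4 was 6.64-fold higher.

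Integrins were higher in Hepa1-6 more often than lower. Of 20 kept genes, 10 were higher and 3 lower, each by over 3-fold, with a median of 1.34. With dim signals at the detection limit, 1 lower gene was left. Itga3, the alpha chain of a laminin receptor, read 2732 on ES and 39760.3 on Hepa1-6, 14.6-fold higher. Itgav and Itgb6, which pair to activate latent TGF-beta, were 25.6-fold higher and at least 16.8-fold higher. Itgb7, otherwise of lymphocytes, read 7231 and 76.4, 94.7-fold lower.

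Receptor tyrosine kinases and their ligands were higher more often than lower, with the EGF and HGF receptors among them. Of 40 kept genes, 20 were higher and 9 lower, each by over 3-fold, with a median of 1.73. Egfr, the EGF receptor, read 117 on ES and 14141 on Hepa1-6, 121-fold higher, and its 4 kept probes were all higher, with differences between 5.34 and 6.92. Its ligand Areg read a dim 20.1 and 16083, at least 689-fold higher, and the ligand Tgfa read 92.8 and 481, 5.18-fold higher, with its other kept probe at a difference of 4.68. Egfr and these 2 ligands were thus higher together, whereas the ligand Ereg was dim on both arrays. Met, the receptor for hepatocyte growth factor, read 159 and 15757, 99.1-fold higher, with its 3 kept probes between 2.03 and 6.63, while Hgf itself was dim on both arrays. Axl, a receptor for Gas6, was at least 98.2-fold higher. Kitl, stem cell factor, read a dim 7.02 and 7148, at least 306-fold higher. Igf1r, the IGF receptor, read 547 and a dim 5.07, at least 21.6-fold lower. Epha4 and Pdgfrb were also lower, at least 156-fold lower and at least 17.5-fold lower, and Igf2r, the clearance receptor for IGF2, was 11.7-fold lower.

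In the TGF-beta pathway, 8 of 21 kept genes were higher and 5 lower, each by over 3-fold, with a median of 0.69, which became 0.42 with normexp and 0.21 without the filter on dim probes. The lower genes became 3 with dim signals at the detection limit and 2 with normexp. Tgfb1, a ligand, read 324 on ES and 4242 on Hepa1-6, 13.1-fold higher. Its receptor Tgfbr2 read 301 and 6055, 20.1-fold higher, and Bmpr2 was 37.1-fold higher. Tgfb1 and its type II receptor were thus both higher in the hepatoma, whereas the ligand Tgfb3 was 3.5-fold lower. Ltbp3, which stores latent ligand in the matrix, was 48.7-fold higher (other kept probe at a difference of 1.58), and Fst, an activin trap, was 17.3-fold higher. The co-receptor Eng and the anti-Muellerian hormone receptor Amhr2 were at least 23-fold lower and 39.8-fold lower.

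Mycn and Myc ran in opposite directions. Mycn read 19222 on ES and 65.1 on Hepa1-6, 295-fold lower. Myc read 1257 and 19126, 15.2-fold higher, with its 3 kept probes between 3.33 and 4.08. Both encode transcription factors that drive growth and ribosome synthesis. AP-1 and immediate early genes, which respond to growth factors and stress, were listed together with MYC genes. Of 26 kept genes in this joint list, 12 were higher and 2 lower, each by over 3-fold, with a median of 0.55. Mycn was among the lower ones. Atf3, a stress factor of regenerating liver, read 189.7 and 20515, 108-fold higher. Fosl1 and Fosl2 were 56-fold higher and at least 26.3-fold higher, although the other kept probe of Fosl2 differed by 0.37. Egr1 was 20.2-fold higher, and Fos was 9.12-fold higher. Jun and Junb were 7.66-fold higher and 3.66-fold higher, at 50.8 and 389 for Jun.

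Cell cycle genes separated into control of G1 and the machinery of S phase and mitosis. In the G1, p53 and INK4 list, 8 of 35 kept genes were higher and 8 lower, each by over 3-fold; the median of 0.0076 turned to -0.14 with normexp background correction. Median centring and spike-in scaling each gave 13 higher and 7 lower. Of the INK4 genes, inhibitors of CDK4 and CDK6, Cdkn2a, Cdkn2b and Cdkn2c were over 3-fold higher, while Cdkn2d was not. Cdkn2a, which encodes p16 and p19ARF, read 70.1 on ES and 1355 on Hepa1-6, 19.3-fold higher. Which of these transcripts its 1 probe measured was not tested. The paper reports both transcripts as undetectable in the hepatoma line by RT-PCR. The array signal of that line was above background, and why the results differ was not tested. Cdkn2b, the neighbour of Cdkn2a, read 267 and 19564, 73.3-fold higher, and Cdkn2c was 10.5-fold higher. The p53 target Cdkn1a, p21, read 2513 and 9748, 3.88-fold higher. For Trp53 itself, the p53 gene, the kept probes differed by -1.85 and 0.15, so no direction is given. Ccne1 and Ccnd3, cyclins that open S phase, were 9.74-fold lower and 9.98-fold lower. Cdkn1c, an imprinted inhibitor, was 29-fold lower, at 943 and 32.5. Ccnd1 was not among the genes named here.

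The S phase and mitosis genes were lower in Hepa1-6, most by a modest fold. Of 45 kept, 33 (73.3%) were over 3-fold lower, 4 over 10-fold, and 0 over 3-fold higher, with a median of -1.93, which was -1.14 with median centring and -1.07 with spike-in scaling. Those scalings left 13 and 11 genes over 3-fold lower. Orc1, the origin recognition subunit, read 6563 on ES and 371 on Hepa1-6, 17.7-fold lower. Mcm5, of the replicative helicase, read 52937 and 4889.5, 10.8-fold lower. Msh6, of mismatch repair, read 63416 and 5877, 10.8-fold lower, and Espl1, the separase that parts sister chromatids, was 11-fold lower. All of these were well above background on Hepa1-6 too, so the difference was one of degree.

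Cell death genes were more often higher. Of 34 kept, 13 were higher and 3 lower, each by over 3-fold, with a median of 0.70. Casp4, the caspase that senses lipopolysaccharide, read a dim 5.71 on ES and 4716 on Hepa1-6, at least 202-fold higher. Casp1 and Casp12, its neighbours among inflammatory caspases, were 30.5-fold higher and at least 20.2-fold higher. Fas, the death receptor, read 70.1 and 1265, 18.1-fold higher, and Tnfrsf12a, the TWEAK receptor, was 34.1-fold higher. Both inducers and inhibitors of death were among the higher members. Bcl2, which blocks the mitochondrial route, read 149 and 880.1, 5.91-fold higher. The BH3-only genes Bik and Bmf, which promote death, were at least 13.7-fold lower and 14.7-fold lower.

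Genes of inflammatory signalling were mostly higher. In the NF-kappaB, cytokine receptor and chemokine list, 30 of 41 kept genes (73.2%) were higher and 6 lower, each by over 3-fold (all genes gave 15.1% and 27.7%), with a median of 2.66 (2.45 at the detection limit). Ccl2, which attracts monocytes, read 47 on ES and 20195 on Hepa1-6, 429-fold higher. Csf1, the macrophage growth factor, read a dim 20.7 and 6051, at least 259-fold higher. The alarmin Il33 was at least 51.5-fold higher, and Tlr4, the lipopolysaccharide receptor, was at least 20.4-fold higher. Cxcl10 read a dim 14.4 and 959, at least 41.1-fold higher. Secreted factors and receptors were thus both among the higher members. Ripk3, the kinase of necroptosis, went the other way, at 2662 and a dim 5.28, at least 105-fold lower. Socs3 and Socs2, feedback inhibitors of cytokine signalling, were 5.63-fold lower and 4.87-fold lower.

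Interferon and class I genes had a similar direction. Of 40 kept, 21 were higher and 5 lower, each by over 3-fold, with a median of 1.69 (1.38 at the detection limit). With normexp the number higher was 13. B2m, the light chain of MHC class I, read 1177 on ES and 44113 on Hepa1-6, 37.5-fold higher. Psmb8, an immunoproteasome subunit, was 22.7-fold higher. Usp18, which removes ISG15 and damps interferon signalling, read a dim 21.2 and 8328, at least 357-fold higher. The double-stranded RNA sensor Ifih1, also known as MDA5, read a dim 5.28 and 978, at least 41.9-fold higher, and the factor Irf2 was at least 36.5-fold higher. Genes of sensing and of antigen presentation were thus among the higher ones. Ifitm1, a membrane protein of ES and germ cells, read 8273 and 163, 50.9-fold lower, and Oas2 was at least 10.8-fold lower. For H2-K1, a class I heavy chain named after its values were seen, the 3 kept probes ranged from -2.56 to 3.72, so no direction is given.

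Hox genes were mostly dim on both arrays. Of 39 genes, 23 were dim on both and 13 were kept, 4 over 3-fold higher and 5 over 3-fold lower; the median of -0.69 (-0.47 at the detection limit) turned to 0.091 with median centring, 0.12 with quantile normalization, 0.0038 over genes above background on both arrays and 0.17 with spike-in scaling. Normexp gave 1 higher and 2 lower, and dim signals at the detection limit 3 and 3. Hoxa10, a posterior gene of its cluster, read a dim 6.46 on ES and 703 on Hepa1-6, at least 30.1-fold higher. Hoxb9 was at least 13.4-fold lower by the probe used, and its other kept probe differed by -0.20.

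Markers of other liver cells were mostly dim on Hepa1-6 or on both arrays. Of 22 markers of sinusoid, blood and stellate cells, 6 were dim on both arrays and 14 were kept, 1 over 3-fold higher and 9 over 3-fold lower in Hepa1-6, with a median of -2.16 (-1.51 at the detection limit). The higher gene was Dcn, which the matrix and imprinted lists also hold. Pecam1, an endothelial adhesion molecule also found on ES cells, read 718 on ES and a dim 10.3 on Hepa1-6, at least 28.4-fold lower. Thy1 was at least 24.8-fold lower and Ngfr was at least 101-fold lower, both with signal on ES. Ptprc, the pan-leukocyte antigen, the macrophage marker Adgre1 and the endothelial Cdh5 were dim on both arrays.

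Genes often used as references were not alike. Of 17 kept, 12 lay within 3-fold, 3 were higher and 2 lower, each by over 3-fold; the median of -0.28 turned to 0.50 with median centring and 0.58 with spike-in scaling. Gapdh read 202924 on ES and 187534 on Hepa1-6, and Actb 921 and 885, and both are given as values because their small differences turned with the scaling. Hprt, a purine salvage enzyme, stood out at 101 on ES and 13716 on Hepa1-6, 136-fold higher. The hybrid arrays read 12445 undifferentiated, 17412 after 7 days and 18041 after 14 days, so ES alone was low. Some widely used E14 sublines carry a deletion in Hprt, and the labels name no subline; its part in the value was not tested. The higher genes also included B2m and Gusb, and Tfrc was among the lower ones; median centring and spike-in scaling each gave 5 higher and 0 lower.

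The largest differences among all genes included several outside the lists. Sprr1a, a cornified envelope protein, read 123 on ES and 193231 on Hepa1-6, 1572-fold higher. Mmp13, a collagenase, read a dim 4.94 and 29381, at least 1258-fold higher. Krt20, a keratin of gut epithelium, was 810.3-fold higher, Cavin2, of caveolae, was 858-fold higher, and the membrane protein Tmem171 was at least 900.1-fold higher. None of these is a classic hepatocyte gene. Among the falls, the small heat shock protein Hspb1 was at least 4841-fold lower, from 130757 to a dim 27. Igfbp2, another binding protein for insulin-like growth factors, read 63359 and a dim 22.4, at least 2504-fold lower. It ran opposite to Igfbp1. Ckb, brain creatine kinase, was at least 2351-fold lower, and Fabp3, the heart fatty acid binding protein, was at least 2185-fold lower. Bex4, Marcksl1, Khdc3 and Rps4l were at least 2501-fold lower, at least 1930.5-fold lower, at least 1952-fold lower and at least 2117-fold lower. Gpc3, an oncofetal glypican, was 4.13-fold lower, at 926 on ES and 224 on Hepa1-6.

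Some differences lay side by side on chromosomes. Runs of at least 4 neighbouring kept genes past 10-fold in the same direction numbered 7 higher and 12 lower in Hepa1-6, and those described here were chosen after their values were seen. The longest, on chromosome 5, held 9 genes higher in Hepa1-6 with a median of 5.46: Alb, Afp, Afm, Rassf6, Cxcl5, Ppbp, Cxcl3, Cxcl15 and Cxcl1. It joined the albumin family to a cluster of chemokine genes. The longest lower run, 7 genes on chromosome 14, had a median of -6.43. On chromosome 12 the imprinted neighbours Dlk1, Meg3, Rian and Dio3 were all lower, with a median of -5.37. On chromosome 15 a run of 4 higher genes from Trib1 to Myc had a median of 5.38. On chromosome 13 the 4 aldo-keto reductases Akr1c14, Akr1c18, Akr1c19 and Akr1c12 were higher, with a median of 5.19. By whole chromosome, 14 had the lowest median, -1.26, with 206 of 499 genes (41.3%) over 3-fold lower, and 3 the highest, 0.28, with 178 of 705 (25.2%) over 3-fold higher. Copy number was not measured here, and its part in these values was not tested.

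Among all 10 pairs of arrays in the series, ES and Hepa1-6 had the largest share of genes past 3-fold, 42.9%. Hepa1-6 against the undifferentiated hybrid gave 39.2%, and against the hybrid at 7 and 14 days 38.2% and 37.7%. ES against the undifferentiated hybrid gave 9.22%. These pairs share arrays, and the pairs with the large shares are also those that cross slides. Spots printed repeatedly on an array show only the error between its spots. For 245 probes with 10 spots each, the median spread was 0.14 (SD, log2) on ES and 0.11 on Hepa1-6, or 0.18 for a difference. That spread covers the array surface and not the culture, the RNA, the labelling or the slide, so the full error can be larger. Of 5144 genes with several kept probes, 1320 had all probes past 3-fold in the same direction and 51 had probes past 3-fold in opposite directions, or 1056 and 29 with dim signals at the detection limit.

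**Figure D3:**
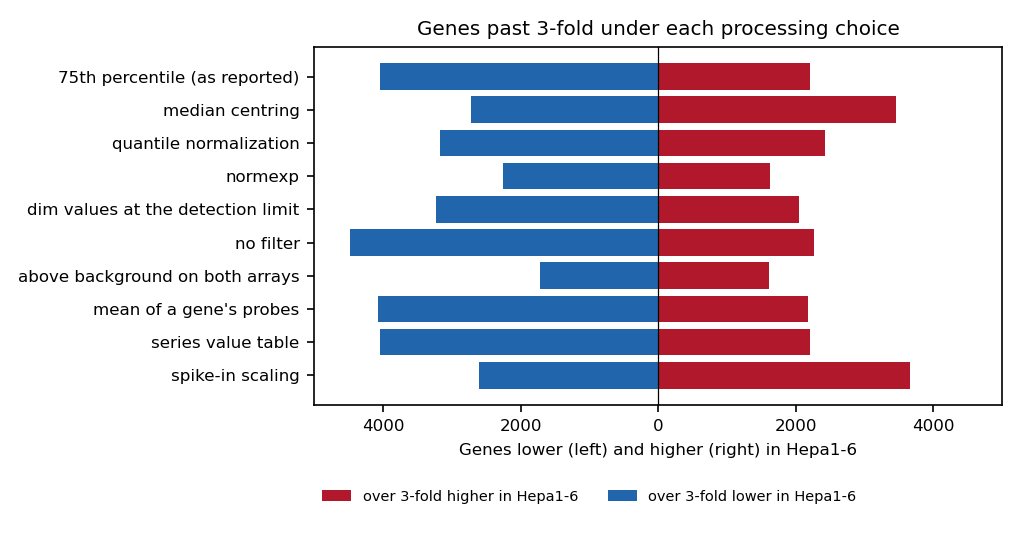
Number of genes over 3-fold higher (red, right) and lower (blue, left) in Hepa1-6 than in ES, 1 array each, under each way of processing. With the 75th percentile 2206 genes were higher and 4043 lower, whereas median centring gave 3466 and 2722 and spike-in scaling 3656 and 2608, so which side held more genes turned with the scaling.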

How the data were processed

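The intensity values deposited by the authors were background-subtracted processed signals from Agilent Feature Extraction 10.7.3.1, 1 colour, not normalized between arrays. The series value table held the same signals (largest relative difference 0) on the same linear scale, uncentred. Control spots and outlier spots (120 on ES, 174 on Hepa1-6) were dropped, and no spot was saturated. Log2 signals were shifted by the array's 75th percentile (1087 on ES, 1456 on Hepa1-6), spots of a probe were averaged, and probes well above background on either array were kept. The probe with the highest mean stood for its gene. Of 41174 probes, 26888 were named through their RefSeq accession; the rest are unnamed here. On ES 62.1% of probes were above background, on Hepa1-6 54.6%, and 1 array per line limits the precision.

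Named genes were the 12 largest rises and 12 largest falls, up to 5 members of each list in each direction, members against their list's direction, and a fixed set of liver, ES and cancer genes. Members and lists were chosen with earlier results of these data known. Other ways of processing tried numbered 8, and 1 more was added after the data were seen. Python 3.11.15, numpy 2.4.6, pandas 2.3.3, R 4.3.3 and limma 3.58.1 (normexp, offset 50) were used, and the code was tested on simulated data.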

Additional observations from a re-analysis of the deposited data

Results flagged for a closer look

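Probes without a gene name, which the comparison of named genes did not use, also carried signal. Of 6191 such probes well above background on ES or Hepa1-6, 281 (4.54%) were over 10-fold higher in Hepa1-6 and 516 (8.33%) over 10-fold lower. Both shares were below those of the named genes, 5.99% and 11.9%, which were counted by gene and not by probe. No control sample was at hand for the unnamed probes, and they were noticed because they lay above the arrays' own background. Which transcripts they measure was not tested.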

How the results depend on the processing

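With 1 array per line, no paired comparison could be run. Total counts, list counts and medians and the named genes were recomputed under 8 other ways of processing, and under spike-in scaling, which was chosen after seeing the data. Runs, chromosomes, families, pairs of arrays, unnamed probes and promoters were not recomputed. Of 297 named genes with a value, 292 were past 3-fold, and of these 1 turned its direction under any alternative: Gnas, at -0.12 with the mean of its probes, of which 1 was dim on Hepa1-6. Of the others, 3 turned from small negative values: Actb (-0.057) to 0.73 with median centring and 0.80 with spike-in scaling, Gapdh (-0.11) to 0.67, 0.75 and, with quantile normalization, 0.15, and Igf2 (-0.36) to 0.42, 0.50 and, with the mean of probes, 0.26. Some of these settings could not turn a gene past 3-fold. Median centring and spike-in scaling add 0.78 and 0.86 to every difference, which is less than 3-fold. The series value table holds the same signals and gave the same counts. Most named genes were also picked for the size of their difference, so the low number of turns does not speak for other genes. Calls of over 3-fold were lost by 29 of the 292 genes with median centring, 29 with spike-in scaling and 16 with quantile normalization. They were lost by 42 with normexp, 14 with dim signals at the detection limit and 6 with the mean of probes. Over probes above background on both arrays, only 152 of these genes had a value, and 2 of the 152, Col5a1 and Hnf4a, lost the call.

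The median difference of all genes turned to 0.31 with median centring and 0.39 with spike-in scaling, and moved to -0.24 with quantile normalization and -0.21 over genes above background on both arrays. Genes over 3-fold higher numbered 3466 with median centring and 3656 with spike-in scaling. Genes over 3-fold lower numbered 2262 with normexp, 1719 above background on both arrays and 2608 with spike-in scaling. Past 10-fold, 481 were higher and 619 lower with normexp, 496 and 364 above background on both arrays, and 1374 higher with spike-in scaling. The filter for both arrays leaves out genes that were dim on one; otherwise the cause was not tested.

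Counts within the lists moved by over 1.5 times in 90 cases and did not in 484. Of 32 list medians, 8 changed sign somewhere. With median centring, P450 enzymes gave 0.54, glycolysis 0.23, epithelial genes 0.22, Hox genes 0.091 and ubiquitous genes 0.50. With spike-in scaling these gave 0.62, 0.31, 0.29, 0.17 and 0.58, and cholesterol synthesis 0.031. Quantile normalization gave P450 enzymes 0.10 and Hox genes 0.12. Above background on both arrays, P450 enzymes gave 0.11, epithelial genes 1.32 and Hox genes 0.0038; no gene of the Xist list was left, so it gave no value. Normexp gave the G1 list -0.14, and no filter gave matrix genes -0.042. For these too the cause was not tested.

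Line, medium and slide cannot be told apart. Folds against dim signals are bounds, so genes dim on one array have no measured ratio, and genes dim on both have none at all.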

Other observations

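Gene families defined by the stem of the symbol, with at least 20 kept members, gave another grouping, which shares some genes with the lists. The families given here were chosen after their values were seen. Of 34 kept serpins, the protease inhibitors that include many plasma proteins, 18 were higher and 12 lower in Hepa1-6, each by over 3-fold, with a median difference of 1.83. Of 21 dual-specificity phosphatases (Dusp), many of which switch off MAP kinases, 12 were higher and 3 lower, with a median of 1.8. Of 33 collagen genes, 9 were higher and 17 lower, with a median of -1.63, and of 26 keratin genes 8 were higher and 13 lower, with a median of -1.57. Lower medians were not particular to these 2 families: olfactory receptors (Olfr, 240 genes) gave -1.84 and vomeronasal receptors (Vmn, 26 genes) -2.40. The medians given are larger than the scaling shifts of 0.78 and 0.86. They were not recomputed with dim signals at the detection limit. That setting moved some list medians further than the scalings did, as for early differentiation markers, from -3.44 to -1.81. How much of the family medians rests on dim signals was not tested.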
